A study of Mus musculus with 8 samples.

Results

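The 31 genes described here encode parts of the sperm axoneme: the heavy, intermediate and light chains of the axonemal dyneins, radial spoke proteins, central pair proteins and tektins. They were chosen by name, as every gene of the RNA-seq tables whose symbol starts with Dnah, Dnaic, Dnal, Tekt or Rsph, together with Spag6, Spag16, Spag17 and Hydin, and they make up 31 of the 23343 genes in these tables. RNA was measured in pachytene spermatocytes (PS, meiotic cells) and round spermatids (RS, their haploid descendants) from the testes of adult C57BL/6 mice that lack both Rnf8 and Scml2 (Rnf8;Scml2-dKO), with 2 samples per stage. H3K27 acetylation (H3K27ac, a histone mark of active promoters and enhancers) was measured by ChIP-seq in PS and RS of wild-type adult C57BL/6 mice, also with 2 samples per stage. PS and RS were purified by sedimentation through a BSA gradient, and each small dKO preparation came from a single male. The study checked the purity of the fractions by nuclear staining and reports it as high but not complete. Each stage is therefore a mixture of cells of slightly different age with some carryover. Wild-type RNA was not analysed here, so the double deletion is shared by all 4 RNA samples and its effect cannot be told apart from the stage. RNA and H3K27ac came from different animals of different genotype and are set side by side without a test.

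The axoneme is the ring of doublet microtubules around a central pair that bends the sperm tail. Dynein arms fixed on one doublet walk along the next, and their heavy chains hydrolyse ATP, while intermediate and light chains hold and tune the arms. Radial spokes and the central pair regulate the arms, and tektins are filaments inside the doublet wall. Transcription of many such genes starts in meiosis, well before the tail is built, and RFX factors and A-MYB (Mybl1) are known regulators of ciliary and meiotic genes in testis.

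Sequences just upstream of the start are shown for the 5 tektins, of which 0 were called for H3K27ac. They are also shown for Dnaic2, Dnah8 and Dnah17, whose promoter mark was called lower in RS. Each line gives the 250 bases before the start, 5′ to 3′, on GRCm38.p6 (the assembly also called mm10), from RefSeq promoters. For Dnah17 the bases precede the RefSeq model start under its H3K27ac peak and were read from the genome. For Tekt2 they precede a RefSeq start at -236 bases relative to the deposited start, which was used for H3K27ac. Capitals mark matches on either strand to 5 short motifs. For RFX factors the letters GTTGCC, part of the X-box, were searched. For CREB and CREM, the letters TGACG were searched. For MYB factors, CAGTTG was used. For forkhead factors such as FOXJ1, TGTTTA was used. For the TATA box, TATAAA was used.
Tekt1, chr11:72361883-72362132, minus strand: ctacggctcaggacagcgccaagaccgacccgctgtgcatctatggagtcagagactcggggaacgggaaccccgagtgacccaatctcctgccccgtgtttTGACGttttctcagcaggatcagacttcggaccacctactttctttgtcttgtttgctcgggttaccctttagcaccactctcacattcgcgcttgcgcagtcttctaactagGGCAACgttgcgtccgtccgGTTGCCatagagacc
Tekt2, chr4:126325436-126325685, minus strand: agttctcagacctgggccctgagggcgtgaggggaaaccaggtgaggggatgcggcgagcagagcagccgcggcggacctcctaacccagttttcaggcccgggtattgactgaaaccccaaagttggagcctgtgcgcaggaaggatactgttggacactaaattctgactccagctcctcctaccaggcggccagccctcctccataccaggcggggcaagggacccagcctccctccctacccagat
Tekt3, chr11:63061409-63061658, plus strand: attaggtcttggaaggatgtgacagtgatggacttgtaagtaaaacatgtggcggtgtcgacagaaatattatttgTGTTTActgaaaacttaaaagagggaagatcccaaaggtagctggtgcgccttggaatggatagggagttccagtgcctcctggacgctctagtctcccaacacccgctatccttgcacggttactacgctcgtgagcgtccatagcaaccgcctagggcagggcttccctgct
Tekt4, chr17:25471340-25471589, plus strand: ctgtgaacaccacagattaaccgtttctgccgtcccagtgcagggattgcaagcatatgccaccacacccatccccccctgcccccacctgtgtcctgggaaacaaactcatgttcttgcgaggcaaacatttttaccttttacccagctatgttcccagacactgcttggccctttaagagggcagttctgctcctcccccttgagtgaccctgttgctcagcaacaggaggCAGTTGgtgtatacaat
Tekt5, chr16:10395456-10395705, minus strand: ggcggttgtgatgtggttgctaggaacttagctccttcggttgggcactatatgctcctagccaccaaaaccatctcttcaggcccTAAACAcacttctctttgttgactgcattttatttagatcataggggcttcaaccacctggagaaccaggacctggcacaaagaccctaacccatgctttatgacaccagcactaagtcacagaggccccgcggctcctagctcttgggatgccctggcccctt
Dnaic2, chr11:114727169-114727418, plus strand: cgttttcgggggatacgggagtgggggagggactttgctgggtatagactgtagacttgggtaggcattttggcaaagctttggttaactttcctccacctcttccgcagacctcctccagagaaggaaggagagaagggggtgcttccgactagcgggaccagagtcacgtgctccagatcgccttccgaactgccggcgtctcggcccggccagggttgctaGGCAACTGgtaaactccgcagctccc
Dnah8, chr17:30626686-30626935, plus strand: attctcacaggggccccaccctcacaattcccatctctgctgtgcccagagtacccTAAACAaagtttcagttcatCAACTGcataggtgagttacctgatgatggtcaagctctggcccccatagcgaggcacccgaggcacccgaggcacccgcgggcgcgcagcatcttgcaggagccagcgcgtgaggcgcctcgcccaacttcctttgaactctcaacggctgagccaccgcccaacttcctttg
Dnah17, chr11:118130713-118130962, minus strand: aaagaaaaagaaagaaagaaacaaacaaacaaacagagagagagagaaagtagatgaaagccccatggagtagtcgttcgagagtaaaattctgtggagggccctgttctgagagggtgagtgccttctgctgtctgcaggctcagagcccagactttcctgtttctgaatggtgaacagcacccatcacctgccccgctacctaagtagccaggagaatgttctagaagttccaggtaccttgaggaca
In Tekt1, GTTGCC occurred on both strands within the last bases before the start. In Dnaic2 the RFX and MYB letters overlapped, as they also did in Dnah7a and Dnah7b, so 3 of the 29 members with a RefSeq promoter held this overlap, against 1.14% of all 32851 promoters. GTTGCC was found in the 300 bases from 250 before to 50 after the start in 10 of 29 members, and in 12.5% of all promoters. CAGTTG was found in 9 of 29 members and 13.7% of all promoters, and TGTTTA in 8 of 29 and 13.4%. For Dnah17 these counts use the window at the deposited start, which held TGTTTA, and not the sequence printed above, which holds none of the 5 motifs. TGACG was found in 5 of 29 members against 20.8% of all promoters, and TATAAA in 0 of 29 against 13.6%. The median ratio of observed to expected CpG was 0.564 in members and 0.384 in all promoters, and among the tektins it ran from 0.147 in Tekt4 to 0.856 in Tekt1. Rsph1 and Rsph4a were not in the promoter table. These matches are counts of letters and were not tested.

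The RNA libraries held 9655405 to 12289694 reads on genes. Members took 2.36% and 2.02% of the reads in PS and 1.14% and 1.12% in RS. The heavy chains alone took 1.75% and 1.36% in PS and 0.569% and 0.563% in RS. Of the 10 spermatid markers, such as the protamines, 10 were higher in RS, but they were also read in PS, with a summed level of 512 and 879 RPKM (read counts corrected for the length of the transcript and the depth of the library) against 14223 and 15072 in RS. Of 10 spermatocyte markers, 6 were lower in RS and 0 higher. Leydig and peritubular markers summed to 729 and 547 RPKM in PS and 70.4 and 44.7 in RS, with 5 of 7 lower in RS. Of 8 spermatogonial markers, 4 were higher in RS and 0 lower, at a summed level of 41.7 and 28.2 RPKM in PS and 53.8 and 51.0 in RS. Of 5 Sertoli cell markers tested, 2 were higher and 0 lower, and all 8 of that list summed to 13.6 and 5.78 in PS and 13.0 and 10.1 in RS. The 3 macrophage and leukocyte markers that could be tested were all higher in RS, at a summed level of 0.739 and 0.668 against 9.29 and 8.20. The other 2 markers of that list, hemoglobin genes, were at 0 in every library. The part of these other cells in the results was not tested. Rnf8 was read at 4.02 and 4.88 RPKM in PS and 2.15 and 2.09 in RS, and Scml2 at 0.724, 1.71, 0.649 and 1.72. The labels do not give the deleted part of either gene, so these levels do not check the genotype.

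Of the 30 members with enough reads to test, 8 were higher and 10 lower in RS than in PS by edgeR's quasi-likelihood test with calls made at 1.5-fold and an adjusted p of 0.05, and 12 were not called. Among all 14647 genes tested, 30.4% were higher and 27.6% lower, so the shares of members called, 26.7% and 33.3%, lie near those of all genes. By role, the median log2 fold change ran from -1.20 in the inner arm heavy chains to 2.07 in the outer arm heavy chains. The latter value rests on Dnah5, Dnah9 and Dnah11, which lay at very low levels. The median was 1.54 in the tektins and -1.10 in the radial spokes, against 0.01 over all genes and -0.21 over the members. In RPKM the stages did not overlap at 26 of the 31 members, so a lack of overlap does not set a member apart. Its share over all genes was not counted. Since RNA is relative to the library total, less RNA per cell and fewer cells of a kind cannot be told apart in these values.

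**Figure D1:**
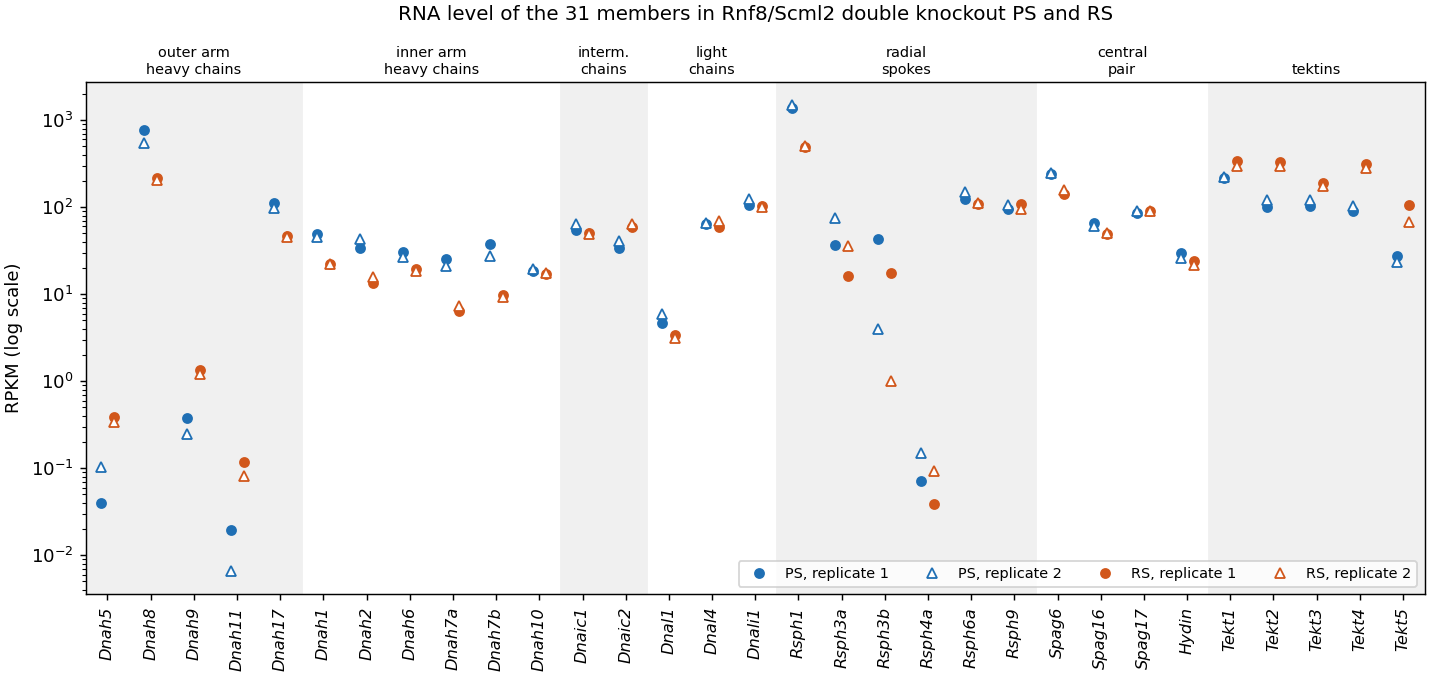
RPKM of each member (log scale) in the 2 PS and 2 RS samples of the dKO, ordered by role. Rsph1 and Dnah8 lie at the top in PS and fall in RS, the tektins lie higher in RS, and Dnah5, Dnah9, Dnah11 and Rsph4a lie under 2 RPKM in every sample.

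Among outer arm heavy chains, Dnah8 and Dnah17, both known from the sperm tail, fell, while Dnah5, Dnah9 and Dnah11, the heavy chains of motile cilia in the airway, rose from very low levels. The level of Dnah8 was 767 and 546 RPKM in the PS replicates (here and later given in the order of their numbers) and 214 and 206 in RS. Both PS values exceeded both RS values, and PS replicate 1 stood above PS replicate 2. With 127425 and 88472 reads, Dnah8 was the most-read gene of both PS libraries, at 1.28% and 0.916% of all reads on genes. In RS it ranked 3 and 4, behind the outer dense fiber gene Odf2 in both. Its log2 fold change was -1.60 ± 0.15 (SE; n = 2 per stage; edgeR adjusted p = 3.83e-05). Dnah17 had 112 and 98.8 RPKM in PS and 47.1 and 45.6 in RS, without overlap, and its log2 fold change was -1.14 ± 0.11 (edgeR adjusted p = 4.66e-05). Its span shares 2289 bases with Pgs1 on the other strand, and the library kit does not keep strand.

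Dnah9 had 0.376 and 0.248 RPKM in PS and 1.35 and 1.20 in RS (log2 fold change 2.07 ± 0.25, edgeR adjusted p = 0.000139). Dnah5 had 7 and 18 reads in PS and 84 and 63 in RS, which is 0.0393 and 0.104 RPKM against 0.384 and 0.342. Dnah11 had 3 and 1 reads in PS and 23 and 13 in RS. The groups did not overlap in any of the 3 genes, and their log2 fold changes of 2.38 ± 0.43 (Dnah5) and 2.93 ± 0.63 (Dnah11) rest on few reads. Part of the span of Dnah11, 725 bases, is shared with Cdca7l on the other strand, and whether reads of Cdca7l were counted for it was not tested. On the log2(RPKM + 1) scale the differences were 0.35 for Dnah5 and 0.12 for Dnah11, and neither was called, since Dnah5 passed the p threshold (limma adjusted p = 0.0119) but not the fold threshold. Of 6 markers of multiciliated or duct epithelium, Mcidas, Gmnc and Pax8 were at most 0.0556 RPKM in every library. Ccno had 2.22 to 3.04 RPKM, and Krt8, a keratin of simple epithelia, had 11.4 and 12.7 in PS and 8.32 and 6.35 in RS and was called lower. Deup1 (Ccdc67 in the files), a centriole amplification gene, had 16.2 and 23.9 RPKM in PS and 123 and 116 in RS.

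Of the 6 inner arm heavy chains, 4 fell, 0 rose and 2 were not called. Dnah7b had 37.6 and 27.8 RPKM in PS and 9.78 and 9.23 in RS (log2 fold change -1.74 ± 0.15, edgeR adjusted p = 2.5e-05). Dnah7a had 25.2 and 21.4 RPKM in PS and 6.38 and 7.24 in RS (log2 fold change -1.73 ± 0.13, edgeR adjusted p = 1.26e-05). RS values were below PS values in both, but these genes are close paralogs on chromosome 1, and only unique alignments were counted, so reads of sequence shared by both would be left out of each. Dnah2 had 33.8 and 43.3 RPKM in PS and 13.5 and 15.9 in RS (log2 fold change -1.36 ± 0.16, edgeR adjusted p = 0.000133). Dnah1 had 49.0 and 46.0 RPKM in PS and 22.0 and 22.5 in RS (log2 fold change -1.05 ± 0.11, edgeR adjusted p = 6.84e-05). All 4 fell without overlap of the stages. Dnah6 passed the p threshold but not the fold threshold, with 30.5 and 27 RPKM in PS and 19.5 and 18.5 in RS (log2 fold change -0.55 ± 0.12, edgeR adjusted p = 0.00339). Dnah10 had 18.4 and 19.4 RPKM in PS and 17 and 17.5 in RS, a log2 fold change of -0.09 ± 0.12 (edgeR adjusted p = 0.502).

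Axonemal heavy chains have some of the longest transcripts, such as Dnah5 with 15616 bases, so other long transcripts were looked at. Of 278 tested genes outside the members with a RefSeq transcript of at least 10000 bases, 39.2% were higher in RS and 18.3% lower, with a median log2 fold change of 0.37. Of the 11 heavy chains among the members, 6 fell, 3 rose and 2 were not called. The long genes were not matched to the heavy chains in level, and the part of transcript length in these changes was not tested.

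Of the 2 intermediate chains of the outer arm, Dnaic2 rose and Dnaic1 was not called. Dnaic2 had 33.9 and 40.9 RPKM in PS and 58.9 and 64.5 in RS (log2 fold change 0.76 ± 0.14, edgeR adjusted p = 0.00191), with no overlap. Dnaic1 had 54.8 and 63.3 RPKM in PS and 50.8 and 49.8 in RS (log2 fold change -0.19 ± 0.13, edgeR adjusted p = 0.234). Among the light chains, Dnal1, which binds the motor domain of an outer arm heavy chain, was the lowest, with 4.66 and 5.86 RPKM in PS and 3.44 and 3.14 in RS (log2 fold change -0.64 ± 0.19, edgeR adjusted p = 0.0171). Its call was lost without PS replicate 2 (log2 fold change -0.41), without RS replicate 1 (-0.62) and without RS replicate 2 (-0.47). Dnali1, a light chain of inner arms, had 106 and 123 RPKM in PS and 104 and 99.9 in RS (log2 fold change -0.14 ± 0.13, edgeR adjusted p = 0.385). Dnal4 had 63.6 and 66.6 RPKM in PS and 58.8 and 69.2 in RS, and its stages overlapped.

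Rsph1, a spoke head protein, was the most abundant member per length. It had 1374 and 1490 RPKM in PS, where it ranked 3 and 2 among all genes, and 495 and 507 RPKM in RS, where it ranked 79 and 64. Both PS values lay above both RS values, and the log2 fold change was -1.48 ± 0.12 (edgeR adjusted p = 1.31e-05). Rsph6a, a spoke head protein of testis, had 124 and 149 RPKM in PS and 108 and 111 in RS (log2 fold change -0.22 ± 0.14, edgeR adjusted p = 0.182), whereas Rsph4a, its counterpart in airway cilia, had 2 to 6 reads per library and was not tested. Rsph9 had 94.1 and 105 RPKM in PS and 109 and 94.1 in RS, with overlap.

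Rsph3a and Rsph3b are near-identical copies on chromosome 17, and their reads were divided differently in replicates 1 and 2 of each stage. Rsph3b took 48.6% (95% exact interval 46.2 to 51.1%) of the reads of the pair in PS replicate 1 and 4.22% (3.31 to 5.28%) in PS replicate 2. In RS it took 47.0% (43.5 to 50.4%) and 2.27% (1.37 to 3.53%). The intervals cover counting error only. Rsph3a had 830 and 1635 reads in PS and 444 and 817 in RS, and Rsph3b had 786 and 72 in PS and 393 and 19 in RS. The sum of the pair was steady between replicates, at 1616 and 1707 reads in PS and 837 and 836 in RS. Of 9702 genes with at least 50 reads in a replicate of each stage, 3 differed at least 4-fold between replicates in the same direction in both stages, and Rsph3b was 1 of them, beside Ccl28 and Tmem37 (a count made after the values were seen). Rsph3a alone was called lower (log2 fold change -1.10 ± 0.40, edgeR adjusted p = 0.0377), but not by DESeq2 (adjusted p = 0.209), nor without PS replicate 2 (-0.44) or RS replicate 1 (-0.54). Rsph3b had a log2 fold change of -1.26 ± 1.09 (edgeR adjusted p = 0.333). With the replicate number as a block, both were called lower, at -1.10 ± 0.15 for Rsph3a (edgeR adjusted p = 6.56e-05) and -1.43 ± 0.22 for Rsph3b (edgeR adjusted p = 0.000169), but no label says that equal numbers are the same animal. The sum of both fell by 1.14 on the log2 scale, with an SE of 0.14 (edgeR adjusted p = 0.000172). The level of each copy is uncertain.

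**Figure D2:**
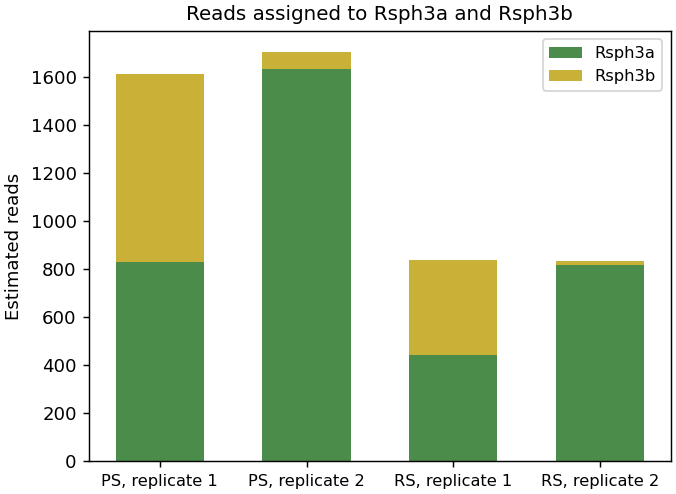
Estimated reads assigned to Rsph3a and Rsph3b in each RNA library, stacked. The height of the bars is alike within a stage (1616 and 1707 in PS, 837 and 836 in RS), while the share of Rsph3b is 48.6% and 47.0% in replicates numbered 1 and 4.22% and 2.27% in replicates numbered 2.

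Of the 4 central pair genes, Spag6 fell and the other 3 were not called. Spag6 had 243 and 247 RPKM in PS and 141 and 157 in RS (log2 fold change -0.68 ± 0.12, edgeR adjusted p = 0.000999), and without RS replicate 1 it was -0.52 and under the fold threshold. The accession under this name belongs to the gene that RefSeq now calls Spag6l. Spag16 had 65.6 and 60.8 RPKM in PS and 48.8 and 50.7 in RS (log2 fold change -0.43 ± 0.12, edgeR adjusted p = 0.0136), past the p but not the fold threshold. These values sum 2 isoform entries of Spag16 that moved in opposite directions. The entry with the longer span had 60.3 and 57.0 RPKM in PS and 37.2 and 34.7 in RS. The other, which starts further downstream, had 5.26 and 3.83 in PS and 11.6 and 16.0 in RS. Neither entry was tested alone. Spag17 had 84.7 and 89.7 RPKM in PS and 89.5 and 90.0 in RS, and Hydin had 29.6 and 26.0 in PS and 23.9 and 21.4 in RS (log2 fold change -0.25 ± 0.12, edgeR adjusted p = 0.0989). Part of the span of Spag17, 5143 bases, is shared with Wdr3 on the other strand.

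Of the 5 tektins, 4 rose and 0 fell, and the fifth, Tekt1, stood at the fold threshold. Tekt4 had 89.5 and 102 RPKM in PS and 310 and 282 in RS (log2 fold change 1.67 ± 0.14, edgeR adjusted p = 1.65e-05). Tekt2 had 100.3 and 121 RPKM in PS and 333 and 295 in RS (log2 fold change 1.54 ± 0.15, edgeR adjusted p = 3.89e-05). In both genes the level in RS was about 3 times that in PS, at 3.09 for Tekt4 and 2.84 for Tekt2. Tekt5, the least abundant, had 27.4 and 23.5 RPKM in PS and 105 and 67.1 in RS (log2 fold change 1.80 ± 0.22, edgeR adjusted p = 0.000157), with a wide gap between the RS replicates. Tekt3 had 102 and 121 RPKM in PS and 188 and 173 in RS (log2 fold change 0.73 ± 0.14, edgeR adjusted p = 0.00181), and without PS replicate 1 it was 0.57 and under the fold threshold. Tekt1, the most abundant of the family in both stages, had 216 and 224 RPKM in PS and 341 and 300.2 in RS. Its log2 fold change of 0.58 ± 0.12 (edgeR adjusted p = 0.00321) fell just short of 1.5-fold, and it was called under DESeq2 (0.59). RS values were above PS values in each of the 5 genes. The summed level of the tektins was 536 and 592 RPKM in PS and 1277 and 1117 in RS.

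**Figure D3:**
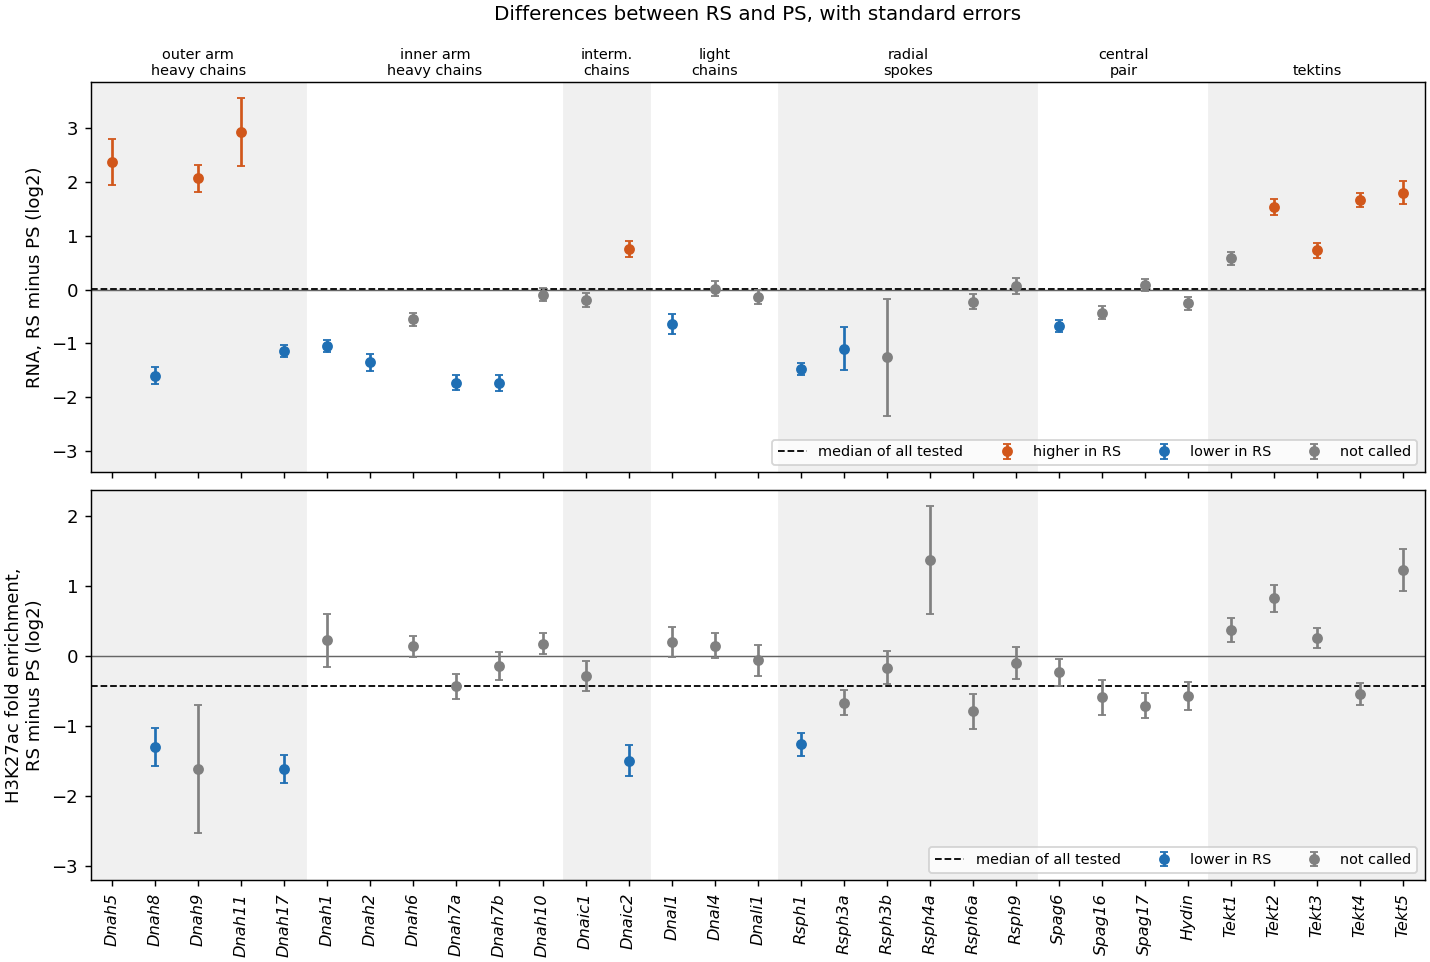
Log2 difference between RS and PS with its standard error, for RNA of the dKO (upper plot) and for H3K27ac fold enrichment of the wild type (lower plot), colored by call, with the median of all genes or promoters tested as a dashed line at 0.01 and -0.43. Dnah8, Dnah17 and Rsph1 are low in both plots, Dnaic2 is high in RNA and low in H3K27ac, and 4 of the tektins lie above the dashed line in both.

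Proteins that work with the members were grouped in 10 lists of 93 genes, of which 90 were found in the tables and 89 tested, with 27 higher, 24 lower and 38 not called (median log2 fold change -0.04). The shares of 30.3% and 27% lie near those of all genes, 30.4% and 27.6%, and the counts of each list below are to be read beside these. Dynein assembly factors, which fold and preassemble the arms in the cytoplasm, had 9 of 14 lower and 1 higher (median -0.76). The largest fall was that of Pih1d3, with 10.1 and 11.3 RPKM in PS and 1.18 and 1.46 in RS (log2 fold change -2.97 ± 0.26, edgeR adjusted p = 2.3e-05), and the gene that rose was Dnaaf3, at 0.78 ± 0.15. Radial spoke proteins outside the name rule had 6 of 8 higher and 1 lower (median 0.97). Ropn1, a spoke protein that binds the AKAP domain, had 42.4 and 52.5 RPKM in PS and 443 and 341 in RS (log2 fold change 3.09 ± 0.19, edgeR adjusted p = 4.97e-06), and Lrrc23 fell by 0.85 on the log2 scale. Of the 5 Rsph members tested, 0 rose.

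Doublet inner proteins other than tektins had 5 of 14 higher and 0 lower (median 0.22), led by Efhc2, which had 0.859 and 0.599 RPKM in PS and 7.53 and 5.88 in RS. Docking complex genes, which fix the outer arm to the doublet, had 3 of 6 higher and 1 lower. Efcab1 rose from 0.545 and 0.479 RPKM in PS to 4.56 and 3.84 in RS, while Ccdc114 fell by 0.90 on the log2 scale. Of the 3 intermediate chain genes outside the rule, Nme8 rose (1.61 ± 0.18) and Wdr63, of an inner arm, fell (-0.78 ± 0.14). The nexin-dynein regulatory complex and axonemal ruler had 2 of 13 higher, led by Iqca (3.08 ± 0.20), and 3 lower, led by Iqcg (-1.12 ± 0.12). Central pair genes outside the rule had 1 of 5 higher, A330021E22Rik (Cfap69), and 2 lower, led by Ttc18 (Cfap70; -1.12 ± 0.13).

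Cytoplasmic and intraflagellar dynein genes had 4 of 9 lower and 0 higher (median -0.52), led by Wdr34, an intermediate chain of the intraflagellar dynein (-1.98 ± 0.16). Light chains shared with cytoplasmic dynein had 3 of 8 higher, led by Dynll2 (2.61 ± 0.14), and 1 lower, Dynlt1c, which belongs to a family of near-identical copies. Of 9 ciliary and germ cell transcription factors, 5 were higher, led by Rfx1 (2.71 ± 0.22), and 2 lower, led by Mybl1 (-1.24 ± 0.15). Foxj1, a forkhead factor of motile cilia, had 7.56 and 11.7 RPKM in PS and 54.1 and 60.0 in RS. Rfx2, the most abundant RFX gene here, had 113 and 132 RPKM in PS and 109 and 123 in RS.

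**Figure D4:**
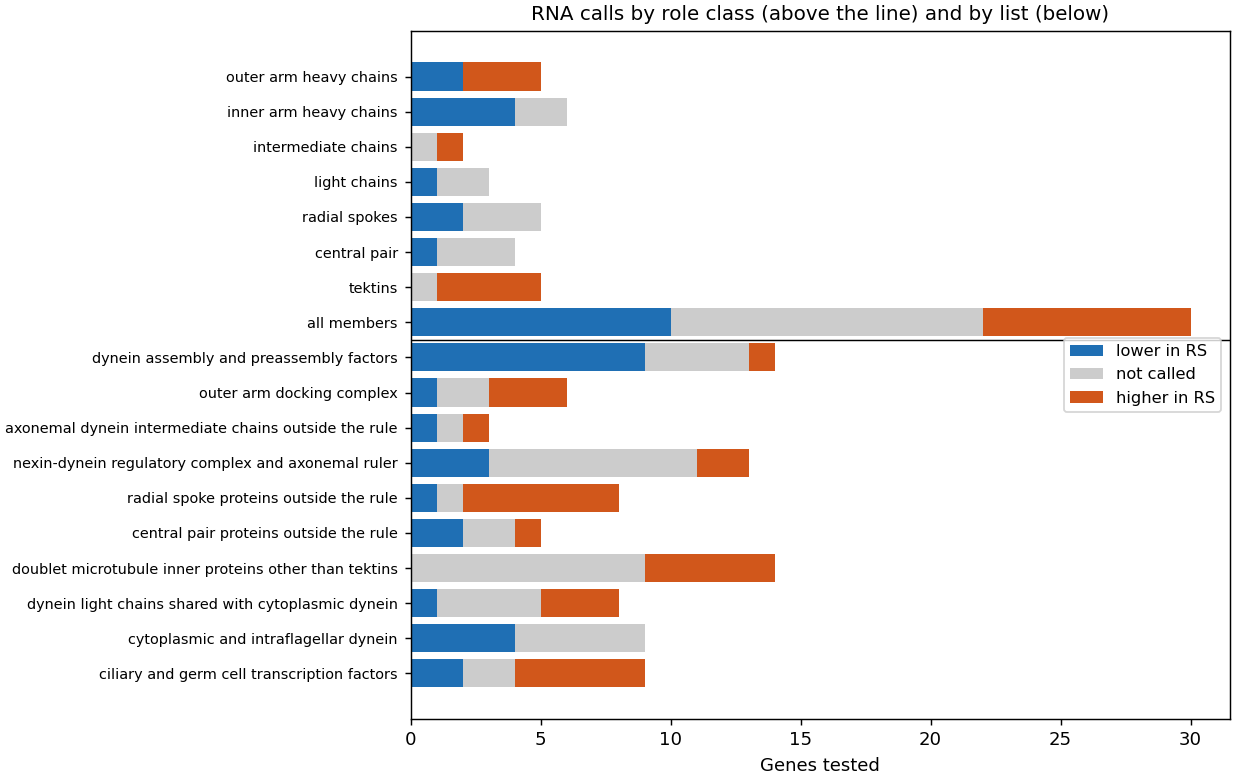
Number of genes lower, not called and higher in RS (edgeR) for each role class of the members and for the 10 lists of related genes. The bars show 4 of 5 tektins and 6 of 8 other spoke genes higher, and 9 of 14 assembly factors and 4 of 6 inner arm heavy chains lower.

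H3K27ac was compared at the starts of the members as the fold enrichment of the strongest peak that touched the 2 kb on either side. The PS lists held 41095 and 49434 peaks, and the RS lists held 74919 and 45863, so RS replicate 1 stood apart. Total reads are not given in the files, and 1 fragment was worth 0.407 to 0.581 units of fold enrichment, depending on the library. A peak was present in both PS replicates at 27 members and in both RS replicates at 27. The share of all genes with such a peak was not counted. In at least 2 of the 4 libraries, a peak was present at 28 of the 31 members and at 13699 of all 23343 genes. Dnah5 and Dnah11, with under 100 reads of RNA per library, had none in any library. Over all 13699 promoters tested by limma on log2(fold enrichment + 1), the median difference between RS and PS was -0.43, and 5.23% were called higher and 15.8% lower. Of the 28 member promoters tested, 0 were called higher and 4 (14.3%) lower, and at an unadjusted limma p of 0.05 these counts were 2 and 9. In either direction, 11 of the 28 members and 5596 of all 13699 promoters were under this unadjusted p, so the members lay near all promoters. The median over members was -0.20, so 16 of the 28 lay above the median of all promoters.

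Both RS values were above both PS values at 7 members (25%), against 14.6% of all promoters, and below at 12 (42.9%), against 58.1%. These counts depend on scaling. After quantile normalization, which sets all libraries to one distribution, 1805 of all promoters were higher and 1603 lower in place of 717 and 2163, and 5 members were higher and 3 lower. Without PS replicate 1, PS replicate 2 or RS replicate 2 there were 0 calls at members, and without RS replicate 1 there were 6, all lower. Each of these fits leaves 1 stage with a single sample, which is assumed to vary like the other stage. The log2 differences of the 4 promoters called kept their direction in each, at -1.83 to -1.41 in Dnah17, -1.37 to -1.16 in Rsph1, -1.49 to -1.11 in Dnah8 and -1.65 to -1.34 in Dnaic2.

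**Figure D5:**
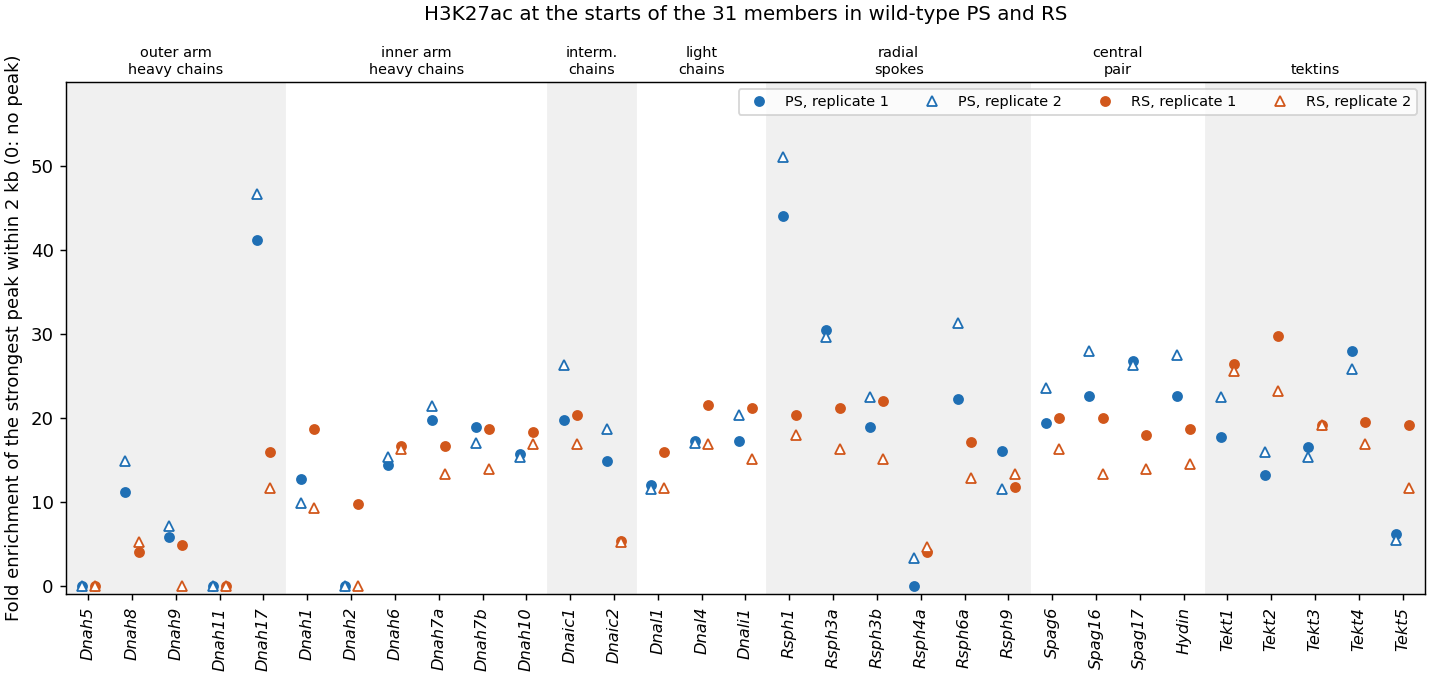
Fold enrichment of the strongest H3K27ac peak within 2 kb of each member's start in the 2 PS and 2 RS samples of the wild type, with 0 where no peak was called. Rsph1 and Dnah17 stand above 40 in PS and at or below 20.3 in RS, and Tekt2 and Tekt5 are higher in both RS samples than in both PS samples.

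Dnah17, Rsph1, Dnah8 and Dnaic2 were the 4 promoters called lower. Dnah17 had fold enrichments of 41.2 and 46.6 in PS and 15.9 and 11.6 in RS, without overlap (log2 difference -1.62 ± 0.20, limma adjusted p = 0.0156). Its peak did not touch the start of the deposited table, at position 118129219 of chromosome 11 (minus strand), and its summits lay upstream of it, between positions 118130356 and 118130511. The peak covered the RefSeq model start at 118130712 in all 4 libraries, and the sequence printed above precedes that start. Rsph1 had 44.0 and 51.0 in PS and 20.3 and 18 in RS (log2 difference -1.26 ± 0.16, limma adjusted p = 0.0156), the strongest start peak of any member in PS. Both genes also had less RNA in RS.

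Dnah8, the most-read gene of PS, had peaks near its start, and the strongest of them did not cover the start in any library. Its fold enrichment was 11.1 and 14.8 in PS, from 26 fragments in each library, and 4.07 and 5.22 in RS, from 9 and 8 (log2 difference -1.30 ± 0.27, limma adjusted p = 0.0389). These values do not all come from one peak. Relative to the deposited start the summits lay at -339 and -353 bases in PS and at -399 in RS replicate 2, whereas the value of RS replicate 1 comes from another peak with its summit at -2046. Within 1 kb, where RS replicate 1 had no peak, the difference was -2.47 ± 0.94 and was not called (limma adjusted p = 0.128). The call was also lost after quantile normalization, where the difference was -1.22 (limma adjusted p = 0.0829), and with a replicate block (limma adjusted p = 0.0593). Dnaic2 had 14.8 and 18.6 in PS and 5.29 and 5.22 in RS (log2 difference -1.49 ± 0.22, limma adjusted p = 0.0201), from 12 and 8 fragments in RS. The strongest peak of RS replicate 2 did not cover the start and had its summit at -373 bases. The difference was the reverse of its RNA, which rose by 0.76 on the log2 scale. Relative to the median of all promoters, the 4 differences were -1.19 (Dnah17), -0.83 (Rsph1), -0.87 (Dnah8) and -1.06 (Dnaic2).

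Of the 5 tektin promoters, 0 were called higher and 0 lower. Both RS values lay above both PS values at 4 of them and below at 1, Tekt4. Tekt5 had 6.17 and 5.48 in PS and 19.1 and 11.6 in RS (log2 difference 1.22 ± 0.30, limma adjusted p = 0.0571). Tekt2 had 13.2 and 15.9 in PS and 29.7 and 23.2 in RS (log2 difference 0.82 ± 0.20, limma adjusted p = 0.0547). Both missed the threshold, and both passed it after quantile normalization, at 1.57 (limma adjusted p = 0.00793) and 1.19 (limma adjusted p = 0.00638). Tekt1 had 17.7 and 22.5 in PS and 26.4 and 25.5 in RS, and Tekt3 had 16.5 and 15.3 in PS and 19.1 and 19.2 in RS. RS exceeded PS in these 4 genes. Tekt4, whose RNA rose most among the abundant tektins, had 28.0 and 25.8 in PS and 19.5 and 16.8 in RS (log2 difference -0.54 ± 0.15, limma adjusted p = 0.0739), which is -0.11 relative to the median of all promoters.

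None of the 5 inner arm heavy chains tested at their deposited starts was called for the mark, among them 3 (Dnah1, Dnah7a and Dnah7b) whose RNA fell. Dnah7b had fold enrichments of 18.9 and 17 in PS and 18.7 and 13.9 in RS, Dnah7a had 19.8 and 21.4 in PS and 16.7 and 13.4 in RS, and Dnah1 had 12.8 and 9.87 in PS and 18.7 and 9.29 in RS. Their log2 differences ran from -0.44 ± 0.18 in Dnah7a to 0.22 ± 0.38 in Dnah1. Dnah6 had 14.4 and 15.3 in PS and 16.7 and 16.3 in RS, and Dnah10 had 15.6 and 15.3 in PS and 18.3 and 16.8 in RS. Dnah2 had a peak near its deposited start in RS replicate 1 only. At RefSeq model starts (chosen after the data were seen) its values were 21 and 25.2 in PS and 9.76 and 9.87 in RS, and the log2 difference was -1.15 ± 0.17 (limma adjusted p = 0.0202). Dnah9 had 5.76 and 7.13 in PS, 4.88 in RS replicate 1 and no peak in RS replicate 2, although its RNA was higher in RS.

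The remaining members were not called. Among radial spoke genes, Rsph3a had 30.5 and 29.6 in PS and 21.2 and 16.3 in RS (log2 difference -0.67 ± 0.18, limma adjusted p = 0.0672), and Rsph6a had 22.2 and 31.2 in PS and 17.1 and 12.8 in RS. Rsph3b and Rsph9 overlapped between stages. Rsph4a had 0 to 9 fragments per library. All of Spag16, Spag17 and Hydin had lower values in both RS samples than in both PS samples, by -0.59, -0.71 and -0.57 on the log2 scale, which is -0.16, -0.28 and -0.13 relative to the median of all promoters. The RNA of Spag17 was not called (log2 fold change 0.08 ± 0.11), and its mark was 26.8 and 26.3 in PS and 17.9 and 13.9 in RS. The light chains, Dnaic1 and Spag6 overlapped between stages.

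Across the 27 members with both measurements, the log2 differences of RNA and of H3K27ac had a Pearson correlation of 0.24 and a Spearman correlation of 0.26. After the median of all promoters was subtracted, the sign was shared by 14 of 27. The genes are not independent replicates, and the samples of the 2 assays differ in genotype.

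Peaks assigned to members or near their starts numbered 118 and 146 in PS and 363 and 184 in RS, which is 2.87 and 2.95 per 1000 peaks in PS and 4.85 and 4.01 per 1000 in RS. In RS, 51.2% and 46.7% of the peaks of members lay in introns, against 34.3% and 27.2% of all peaks of the same libraries. In PS the shares were 29.7% and 38.4% for members and 23.3% and 26.6% for all peaks. Dnah8 had 5 and 12 intronic peaks in PS and 28 and 11 in RS, and Dnah7b had 2 and 3 in PS and 24 and 10 in RS. Members include some of the longest genes of the tables, such as Spag16 at 898 kb and Hydin at 343 kb, and the higher counts in RS replicate 1 move with its larger peak number. The part of gene length and peak number in these shares was not tested.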

How the data were processed

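RNA-seq (amplified cDNA, no strand information) was analysed in 2 PS and 2 RS samples of Rnf8;Scml2-dKO mice, and H3K27ac ChIP-seq (ChIPmentation) in 2 PS and 2 RS samples of wild-type mice. Samples were grouped by their labels. RNA reads were aligned by the authors to mm10 with STAR 2.4.2a, limited to unique alignments and split over RefSeq isoforms by expectation-maximization. They deposited estimated counts per isoform, without normalization, and RPKM, normalized for length and library size. For ChIP, the authors used Bowtie 1.1.1 and MACS2 2.1.0.20140616 (versions per the submitters' processing notes) on each sample. They deposited the pileup signal at each summit, the fold enrichment ratio over a constant background, and -log10 p and q values.

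Here, counts were summed to genes, and genes with at least 10 reads in 2 or more samples were fitted with edgeR's quasi-likelihood test (TMM). Summits were joined into peaks, and the strongest peak within 2 kb of a deposited start was compared by limma on log2(fold enrichment + 1), with no peak as 0. Calls needed an adjusted p of 0.05 (Benjamini-Hochberg over all genes or promoters) and a 1.5-fold change. Depth is known for RNA (9655405 to 12289694 reads) but not for ChIP. The study describes the replicates of both assays as biological, and the animals behind each ChIP sample were not given in the sources used here.

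The members, the lists of related genes and the markers were chosen with earlier results of these data known. All members are named, and full statistics and refits cover, in each role class, the most abundant member and up to 3 called members with the largest changes. In each related list, the called gene with the largest change in each direction is named. Roles were assigned from general knowledge. Tools were R 4.3.3, edgeR 4.0.16, DESeq2 1.42.0, limma 3.58.1 and Python 3.11.15 with scipy 1.17.1, and the fits were tested on simulated data. Promoter windows were matched by RefSeq accession to gene identifiers of GRCm38.p6 for 27 members and by symbol and position for Dnah7b and Tekt5. Alternatives were other normalizations, filters, pseudocounts, windows and peak thresholds, DESeq2, limma on RPKM, a block for the replicate number and fits without each sample. RefSeq model starts, summits in place of peaks and the summed Rsph3 copies were added after seeing the data.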

Additional observations from a re-analysis of the deposited data

How the results depend on the processing

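For RNA, the counts of members called stayed within 1.5 times under each alternative tried, at 6 to 9 higher and 7 to 12 lower (12 with no fold threshold, and 6 and 7 with genes of mean RPKM of at least 1, a filter that moved fold changes by 0.13 and leaves out Dnah5, Dnah9 and Dnah11). For the 19 members given in full by the naming rule, 205 refits were made, of which 185 kept direction and call, 14 lost the call and 5, all of Tekt1, gained it. Their sign changed once, for Dnali1, whose log2 fold change ran from -0.28 without PS replicate 1 to 0.026 without PS replicate 2. Over all 30 members tested, 10 of 325 refits changed sign, in 6 members (Dnah10, Dnal4, Dnali1, Rsph3b, Rsph9 and Spag17) of which 0 were called, and Rsph3b went from -1.26 to 1.22 without PS replicate 1. For H3K27ac, 0 members were called higher, but 1 (Rsph4a) with peaks of -log10 p of at least 5 and 5 after quantile normalization, where 1805 promoters in all were higher. Leaving out each replicate, with the lone sample of that stage assumed to vary like the other stage, gave 0 to 6 members lower, 25 to 530 promoters higher and 476 to 4231 lower in all. The causes were not tested. With a replicate block, 8 members rose and 11 fell in RNA, and 0 rose and 3 fell in H3K27ac, where Dnah8 was no longer called (limma adjusted p = 0.0593). Rsph3b was the member gained in RNA. Each dKO preparation gave PS and RS of 1 male, but the labels do not tie equal numbers to 1 animal, so whether the numbers pair the RNA samples is not known. The correlation of deviations between samples of equal number was 0.22 in RNA and 0.0026 in H3K27ac. With 2 samples per stage, few-read genes (Dnah5, Dnah11, Rsph4a) and weak peaks are limited by depth.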
